A study of Homo sapiens with 8 samples.

Results

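The 10 genes described here stand on the opposing sides of the epithelial-mesenchymal transition (EMT) switch: the cadherins CDH1 and CDH2, the intermediate filament gene VIM, the transcription factors ZEB1, ZEB2, SNAI1, SNAI2 and TWIST1, and the splicing factors ESRP1 and ESRP2. They were selected by gene symbol as 10 of the 27475 human genes in the deposited tables. Each symbol matched 1 entry, and all 10 genes were above 0 TPM (transcript abundance scaled to gene length and library size) in at least 7 of the 8 libraries. RNA-seq was performed on RT112 and UM-UC-3, both established human bladder cancer cell lines, to follow what PAI-1 depletion does to gene expression. Each line was transfected with 100 pmol siRNA in the reagent INTERFERin for 72 h, either with 3 pooled siRNAs that target PAI-1, called siPAI-1, or with 3 pooled scrambled control siRNAs, called Scr. There were 2 libraries in each of the 4 groups RT112 Scr, RT112 siPAI-1, UM-UC-3 Scr and UM-UC-3 siPAI-1, numbered replicate 1 and 2. The cells of all groups were transfected, and no untransfected library was analysed here. The labels do not say whether the 2 libraries of a group came from separate cultures, so p-values measure the spread between these libraries, which may be technical. The methods name 2 growth media without saying which line was kept in which, so cell line and medium cannot be told apart.

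In epithelial cells, the EMT regulators ZEB1, ZEB2, SNAI1, SNAI2 and TWIST1 are known to repress CDH1, which encodes E-cadherin, the adhesion protein that holds neighbouring cells together. The ESRP proteins keep transcripts in their epithelial splice forms, and ZEB1 is known to repress their genes as well. Cells that pass through EMT typically lose E-cadherin, gain N-cadherin (CDH2) and vimentin (VIM), and become more motile, and in bladder cancer cell lines this axis separates epithelial-like from mesenchymal-like lines.

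The depth of the libraries was estimated at 29.2 to 34.2 M reads. Of 13 urothelial and epithelial markers, 10 had a mean of at least 1 TPM in RT112 Scr and 6 in UM-UC-3 Scr, and their summed level was 13535 and 13258 TPM in RT112 Scr against 228 and 245 TPM in UM-UC-3 Scr. The 4 leukocyte markers summed to 0.26 to 0.7 TPM, the 3 endothelial markers to 0.13 to 2.35 TPM and the 4 fibroblast markers to 5.98 to 25.1 TPM over the 8 libraries. Of the leukocyte markers, PTPRC, CD3E, CD14 and CD79A reached at most 0.03, 0.2, 0.5 and 0.43 TPM. The endothelial markers VWF, CDH5 and PECAM1 reached at most 0.37, 0.63 and 1.76 TPM. Among the fibroblast markers, LUM was 10.67 to 17.97 TPM in RT112 and 0.19 to 1.31 TPM in UM-UC-3. PDGFRA had the opposite order, with at most 0.05 TPM in RT112 and 1.84 to 4.13 TPM in UM-UC-3. COL1A1 and DCN reached at most 6.95 and 0.52 TPM. The library RT112 siPAI-1 replicate 1 stood apart from the other 3 RT112 libraries: of 12198 genes, 153 lay at least 1.5-fold above and 177 at least 1.5-fold below all 3, against 70 to 87 and 92 to 138 for the other RT112 libraries.

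In the control cells the 10 genes were split evenly between the lines. RT112 Scr was higher for CDH1, ESRP1, ESRP2, SNAI2 and CDH2 and UM-UC-3 Scr for VIM, ZEB1, ZEB2, SNAI1 and TWIST1, each at an adjusted p under 0.05 (limma on log2(TPM + 0.1), Benjamini-Hochberg over 19201 genes), and the 2 groups did not overlap for any of the 10. The lines differ in much of the transcriptome: 51.6% of all genes tested passed the same threshold, 25.3% higher and 26.3% lower in RT112, and 72.3% did not overlap. A call by itself therefore did not set the 10 genes apart, and the sizes of the differences are given below. For 8 of the genes the difference was 4.59 to 9.24 on the log2 scale in either direction, and for SNAI2 and CDH2 it was 2.1 and 0.96. The sizes for genes near 0 TPM depend on the pseudocount: with 1 TPM and with 0.01 TPM in place of 0.1 TPM the log2 fold change of RT112 against UM-UC-3 was -2.46 and -5.35 for SNAI1, -3.42 and -6.62 for TWIST1, -4.9 and -8.86 for ZEB2, 6.91 and 11.02 for CDH1 and 5 and 9.25 for ESRP2, with the calls kept. RNA of whole cultures was measured, so fewer cells that express a gene and less RNA of it per cell cannot be told apart.

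**Figure D1:**
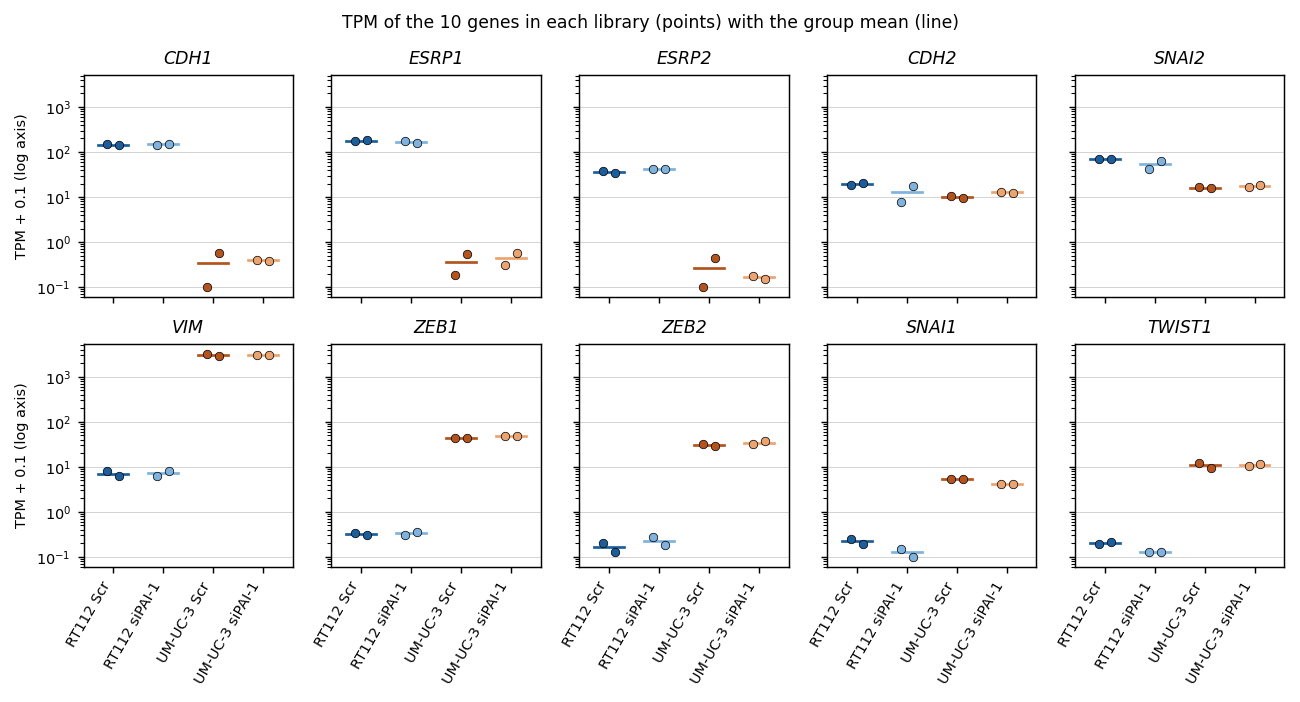
TPM of the 10 genes plus 0.1 on a log axis, in panels by gene, with a point for each library and a line at the mean of each group of 2. CDH1, ESRP1 and ESRP2 lie above 34 TPM in all RT112 libraries and below 0.5 TPM in all UM-UC-3 libraries, VIM, ZEB1, ZEB2, SNAI1 and TWIST1 show the opposite order, and CDH2 and SNAI2 are present in both lines.

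CDH1 (ENSG00000039068.18, GRCh38 chr16:68737292-68835537), the E-cadherin gene, was measured at 149.6 and 141 TPM in RT112 Scr and at 146.7 and 148 TPM in RT112 siPAI-1. In UM-UC-3 it was listed at 0 and at 0.48 TPM with Scr and was 0.3 and 0.28 TPM with siPAI-1. All 4 RT112 libraries were thus more than 100 times above all 4 UM-UC-3 libraries. The level of 0.48 TPM stood for an estimated 51 reads and the levels in RT112 for 13384 to 16275 reads. Between the Scr groups the difference was 9.24 on the log2 scale (SE 0.9, 95% interval 6.74 to 11.74, adjusted p = 0.00259 by limma), and CDH1 ranked 47 of 19201 genes by its change in favour of RT112. In the siPAI-1 libraries, which share none with the Scr comparison, it was 8.56 (SE 0.12, adjusted p = 0.000221 by limma). For genes near 0 such values depend on the 0.1 TPM added and on single libraries. The fold from the log2 value was 604 with Scr, where the mean TPM differed 606 times, and 379 with siPAI-1, where it differed 509 times. Without UM-UC-3 Scr replicate 1, where CDH1 was listed at 0, the log2 difference with Scr was 7.97.

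The ESRP genes encode paired RNA-binding proteins of epithelial cells that direct exon choice in genes such as FGFR2 and CD44. ESRP1 (ENSG00000104413.15, chromosome 8) was measured at 175 and 184 TPM in RT112 Scr and 176 and 163 TPM in RT112 siPAI-1, and at 0.09 and 0.45 TPM in UM-UC-3 Scr and 0.21 and 0.46 TPM in UM-UC-3 siPAI-1. ESRP2 (ENSG00000103067.11, chr16:68229033-68236127) was measured at 37 and 34.9 TPM in RT112 Scr and 42.9 and 41.6 TPM in RT112 siPAI-1, and in UM-UC-3 it was listed at 0 and at 0.34 TPM with Scr and was 0.08 and 0.05 TPM with siPAI-1. Both genes were high in every RT112 library and below 0.5 TPM in every UM-UC-3 library. The differences between the Scr groups were 9.12 (SE 0.55, adjusted p = 0.000899) for ESRP1 and 7.42 (SE 0.78, adjusted p = 0.0031) for ESRP2 on the log2 scale by limma. In RT112 the level of ESRP1 was 3.91 to 5.27 times that of ESRP2, with the lower ratios of 4.11 and 3.91 in the siPAI-1 libraries. The calls on these genes and on CDH1 needed both RT112 Scr libraries: without replicate 1 or replicate 2 the fold changes were 9.2 and 9.28 for CDH1, 9.15 and 9.09 for ESRP1 and 7.38 and 7.47 for ESRP2, and the adjusted p by limma became 0.0986 and 0.0973, 0.0592 and 0.06, and 0.104 and 0.102, in fits that assume the lone library to vary like the other group. Leaving out a UM-UC-3 Scr library kept the calls but moved the sizes: without replicate 1 or replicate 2 the log2 fold changes were 7.97 and 10.51 for CDH1, 8.35 and 9.89 for ESRP1 and 6.36 and 8.49 for ESRP2.

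The low values of these epithelial genes in UM-UC-3 differed between its libraries. As a share of the RT112 mean with the same siRNA, CDH1 stood at 0, 0.33, 0.203 and 0.19% in UM-UC-3 Scr replicates 1 and 2 and siPAI-1 replicates 1 and 2. For 16 other epithelial surface and polarity genes the median share in the same libraries was 0.04, 0.14, 0.173 and 0.399%, and 5, 3, 1 and 0 of the 16 were listed at 0. UM-UC-3 Scr replicate 1 was the lowest library for CDH1, for ESRP1, for ESRP2 and for the median of these 16 genes. The part of this library in the results near 0 TPM was not tested further than by leaving it out, which turned the siPAI-1 effect on CDH1 in UM-UC-3 from 0.69 to -0.57 and that on ESRP1 from 0.37 to -0.4 on the log2 scale.

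**Figure D2:**
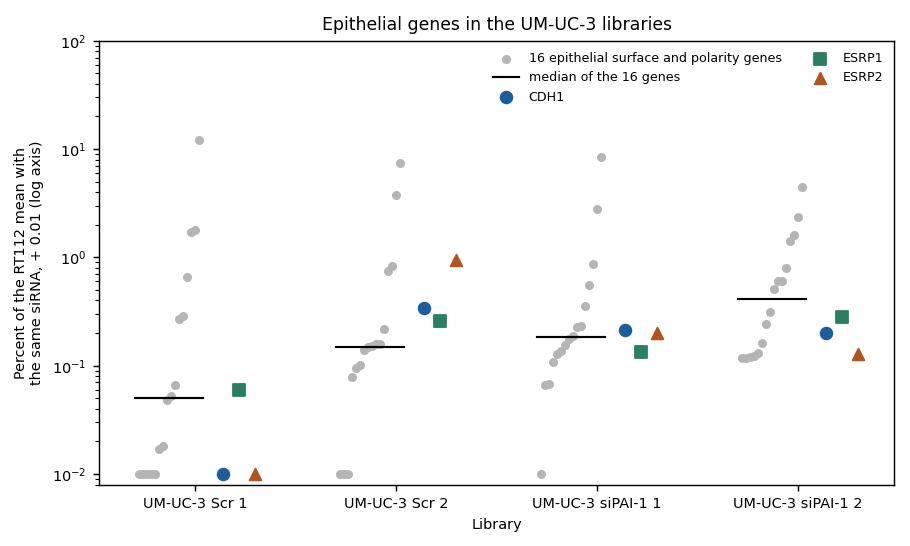
Level of epithelial genes in each UM-UC-3 library as a percent of the RT112 mean with the same siRNA, plus 0.01, on a log axis: grey points are 16 epithelial surface and polarity genes, the black line is their median, and coloured symbols are CDH1, ESRP1 and ESRP2. CDH1 and ESRP2 are listed at 0 in UM-UC-3 Scr replicate 1, where the median of the 16 genes is 0.04%, and the 3 coloured symbols are below 1% in all libraries.

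CDH2 (ENSG00000170558.8, chr18:27932879-28177130), the N-cadherin gene, was not restricted to the line that lacked CDH1. It was measured at 18.2 and 20.6 TPM in RT112 Scr and at 10.6 and 9.22 TPM in UM-UC-3 Scr, and at 7.65 and 17.9 TPM in RT112 siPAI-1 and 12.6 and 12.4 TPM in UM-UC-3 siPAI-1. Both RT112 Scr libraries were above both UM-UC-3 Scr libraries, while the RT112 siPAI-1 libraries lay on either side of the UM-UC-3 siPAI-1 libraries. The log2 fold change of RT112 against UM-UC-3 was 0.96 (SE 0.13, adjusted p = 0.00621 by limma) with Scr and -0.1 (SE 0.44, 95% interval -1.32 to 1.13, adjusted p = 0.867 by limma) with siPAI-1. The call with Scr was lost without any of the 4 libraries, with fold changes of 1.05 and 0.87 without RT112 Scr replicates 1 and 2 (adjusted p = 0.0718 and 0.0872 by limma) and 1.06 and 0.86 without UM-UC-3 Scr replicates 1 and 2 (adjusted p = 0.0631 and 0.0783 by limma), and in a fit over all 8 libraries (adjusted p = 0.0612 by limma). The value with siPAI-1 took its sign from 1 library, since it was 0.51 without RT112 siPAI-1 replicate 1 and -0.71 without replicate 2, both then called.

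Within RT112 the transcript level of E-cadherin exceeded that of N-cadherin in every library, by 8.22 and 6.86 times with Scr and by 19.2 and 8.27 times with siPAI-1. In UM-UC-3 the order was opposite, and CDH2 was 19.2 times CDH1 in Scr replicate 2 and 42.1 and 44.4 times CDH1 in the siPAI-1 libraries. The ratio of these cadherins thus turned between the lines through CDH1, with CDH2 within 7.65 to 20.6 TPM in all 8 libraries.

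VIM (ENSG00000026025.13, chr10:17228241-17237593) encodes vimentin, the intermediate filament protein of mesenchymal cells. It was measured at 3142 and 2852 TPM in UM-UC-3 Scr and at 2988 and 2977 TPM in UM-UC-3 siPAI-1, and at 7.81 and 6.04 TPM in RT112 Scr and 6.28 and 8.09 TPM in RT112 siPAI-1. By its mean in UM-UC-3 Scr it ranked 38 among 17513 genes above 0, whereas in RT112 Scr it ranked 9225 among 17216. The log2 fold change of RT112 against UM-UC-3 was -8.75 (SE 0.14, adjusted p = 0.000242 by limma) with Scr and -8.69 (SE 0.13, adjusted p = 0.000221 by limma) with siPAI-1, and VIM ranked 8 of 19201 genes by its change in favour of UM-UC-3 Scr. Unlike ZEB1, ZEB2, SNAI1 and TWIST1, VIM was not near 0 in the other line, where its levels stood for an estimated 251 to 359 reads.

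**Figure D3:**
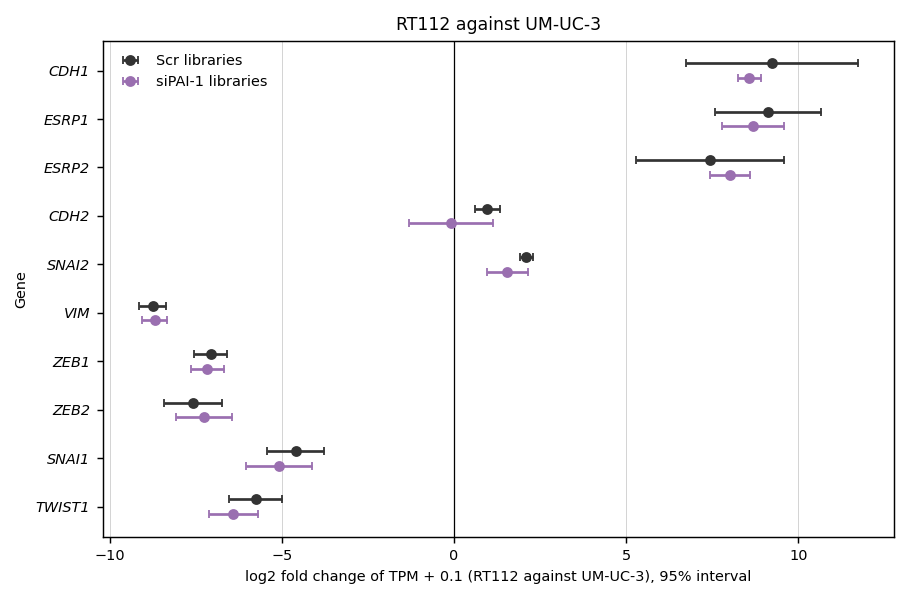
The log2 fold change of TPM + 0.1 of RT112 against UM-UC-3 for each gene, with the 95% interval from limma, in the Scr libraries (black) and in the siPAI-1 libraries (purple), which share no library. The points of CDH1, ESRP1, ESRP2 and SNAI2 are to the right of 0 and those of VIM, ZEB1, ZEB2, SNAI1 and TWIST1 to the left in both, while CDH2 is at 0.96 with Scr and -0.1 with siPAI-1.

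The zinc finger repressors ZEB1 and ZEB2 bind E-box elements in the promoters of CDH1 and other epithelial genes. ZEB1 (ENSG00000148516.21, chr10:31318417-31529804) was measured at 43.1 and 44 TPM in UM-UC-3 Scr and 47.1 and 48.3 TPM in UM-UC-3 siPAI-1, and at 0.24 and 0.21 TPM in RT112 Scr and 0.21 and 0.26 TPM in RT112 siPAI-1. ZEB2 (ENSG00000169554.16, chr2:144384081-144520119) was measured at 31.9 and 29.6 TPM in UM-UC-3 Scr and 31.4 and 36.5 TPM in UM-UC-3 siPAI-1, and at 0.1 and 0.03 TPM in RT112 Scr and 0.17 and 0.08 TPM in RT112 siPAI-1. Both were thus present in all UM-UC-3 libraries at 1.33 to 1.5 times as much ZEB1 as ZEB2, and at 26 to 33 estimated reads for ZEB1 and 5 to 38 for ZEB2 in RT112. The log2 fold changes of RT112 Scr against UM-UC-3 Scr were -7.07 (SE 0.17, adjusted p = 0.000275) for ZEB1 and -7.58 (SE 0.31, adjusted p = 0.000472) for ZEB2 by limma, and -7.16 and -7.27 in the siPAI-1 libraries.

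ZEB1 and ZEB2 are known to be held down by the miR-200 family of microRNAs, whose genes they repress in turn. The sequences of the 5 mature family members, from RefSeq (GRCh38.p14), are shown because they fall into a pair of seed classes, with the seed (bases 2 to 8) in capitals.
hsa-miR-200b-3p: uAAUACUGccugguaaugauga
hsa-miR-200c-3p: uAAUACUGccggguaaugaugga
hsa-miR-429: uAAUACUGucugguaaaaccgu
hsa-miR-200a-3p: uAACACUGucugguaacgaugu
hsa-miR-141-3p: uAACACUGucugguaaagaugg
The seed AAUACUG is shared by miR-200b, miR-200c and miR-429 and the seed AACACUG by miR-200a and miR-141. miR-200b, miR-200a and miR-429 lie on the plus strand of chromosome 1 (mature miR-200b at chr1:1167160-1167181), and miR-200c and miR-141 on the plus strand of chromosome 12 (mature miR-200c at chr12:6963742-6963764).

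The reverse complement of the first seed class, CAGTATT, occurred 6 times in the 2540 bases of the 3′ untranslated region of the main ZEB1 transcript and 5 times in the 5370 bases of that of ZEB2. For the other seed class it is CAGTGTT, with 3 matches for ZEB1 and 4 for ZEB2. Of 2323 other 3′ untranslated regions within 20% of the length of that of ZEB1, 26.7% held CAGTATT and 28.7% held CAGTGTT at least once, and of 1134 within 20% of the length of that of ZEB2, 45.9% and 52% did. As many matches as in ZEB1 were held by 0 of the 2323 for CAGTATT and by 15 for CAGTGTT. As many as in ZEB2 were held by 0 of the 1134 for CAGTATT and by 14 for CAGTGTT. The letters were searched on the transcript strand only, and a match is a description of the sequence. The match nearest to the stop codon is printed for each gene and seed class, with the match in capitals.
ZEB1, bases 355 to 379 of the 3′ untranslated region: ttgttttatcttatCAGTATTatca
ZEB1, bases 768 to 792 of the 3′ untranslated region: aaaatcatcagaatCAGTGTTtgtg
ZEB2, bases 378 to 402 of the 3′ untranslated region: gcactaccatacatCAGTATTttta
ZEB2, bases 194 to 218 of the 3′ untranslated region: gcaaaaattttgtaCAGTGTTaagg

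The mature microRNAs were not analysed here, since libraries of mRNA do not hold them. Of 8 genes of the miR-200 and miR-205 families, 1 had an entry, MIR200CHG (ENSG00000257084.1), the host transcript of miR-200c and miR-141. It was measured at 5.28 and 5.42 TPM in RT112 Scr and at 3.25 and 1.86 TPM in RT112 siPAI-1, and it was listed at 0 in all 4 UM-UC-3 libraries, where ZEB1 and ZEB2 were high. RT112 and UM-UC-3 differed with an adjusted p of 0.000613 by limma with Scr and 0.00187 with siPAI-1. Both RT112 siPAI-1 libraries lay below both RT112 Scr libraries for this transcript, with a log2 fold change of -1.09 (SE 0.34, adjusted p = 0.838 by limma), which did not pass the threshold.

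SNAI1 and SNAI2, which encode the zinc finger repressors Snail and Slug, showed opposite orders in the lines. SNAI1 (ENSG00000124216.3, chr20:49982980-49988886) was measured at 5.19 and 5.12 TPM in UM-UC-3 Scr and 3.96 and 4.11 TPM in UM-UC-3 siPAI-1, and at 0.15 and 0.09 TPM in RT112 Scr, at 0.05 TPM in RT112 siPAI-1 replicate 1 and at 0 in replicate 2. SNAI2 (ENSG00000019549.8, chromosome 8) was measured at 68.2 and 70.4 TPM in RT112 Scr and 42.9 and 62.8 TPM in RT112 siPAI-1, and at 16.4 and 15.7 TPM in UM-UC-3 Scr and 16.5 and 18.8 TPM in UM-UC-3 siPAI-1. All RT112 libraries were therefore lower for SNAI1 and higher for SNAI2 than all UM-UC-3 libraries. In RT112, the levels of SNAI1 stood for at most 5 estimated reads and those of SNAI2 for 2117 to 2970 reads.

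The log2 fold change of RT112 Scr against UM-UC-3 Scr was -4.59 (SE 0.3, adjusted p = 0.00101 by limma) for SNAI1 and 2.1 (SE 0.07, adjusted p = 0.000359 by limma) for SNAI2. With siPAI-1 the values were -5.08 (SE 0.35, adjusted p = 0.00117 by limma) for SNAI1 and 1.55 (SE 0.21, adjusted p = 0.00648 by limma) for SNAI2. For SNAI2 the call in the siPAI-1 libraries was lost without RT112 siPAI-1 replicate 2 (1.28, adjusted p = 0.053 by limma), without UM-UC-3 siPAI-1 replicate 1 (1.46, adjusted p = 0.139 by limma) and without UM-UC-3 siPAI-1 replicate 2 (1.65, adjusted p = 0.121 by limma), always with the same direction.

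TWIST1 (ENSG00000122691.12, chr7:19113047-19117636), a basic helix-loop-helix factor of mesoderm development and EMT, was measured at 12.2 and 9.42 TPM in UM-UC-3 Scr and 10.5 and 11.4 TPM in UM-UC-3 siPAI-1. In RT112 it was 0.09 and 0.11 TPM with Scr and 0.03 TPM in both siPAI-1 libraries, which stood for an estimated 1 to 4 reads. The log2 fold change of RT112 against UM-UC-3 was -5.76 (SE 0.28, adjusted p = 0.000604 by limma) with Scr and -6.41 (SE 0.25, adjusted p = 0.000486 by limma) with siPAI-1.

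Summed over the 5 transcription factors, the level was 43.4 to 70.8 TPM in the RT112 libraries and 104 to 119 TPM in the UM-UC-3 libraries. SNAI2 made up 98.9 to 99.4% of this sum in RT112 and 15 to 15.8% in UM-UC-3. In UM-UC-3 the sum was spread over ZEB1 with 39.6 to 43%, ZEB2 with 28.5 to 30.6%, TWIST1 with 9.1 to 11.2% and SNAI1 with 3.5 to 4.9%. The line that kept CDH1, ESRP1 and ESRP2 was therefore not without EMT factor transcripts, but nearly all of them were SNAI2. These shares are of transcripts per length and carry no information on protein.

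**Figure D4:**
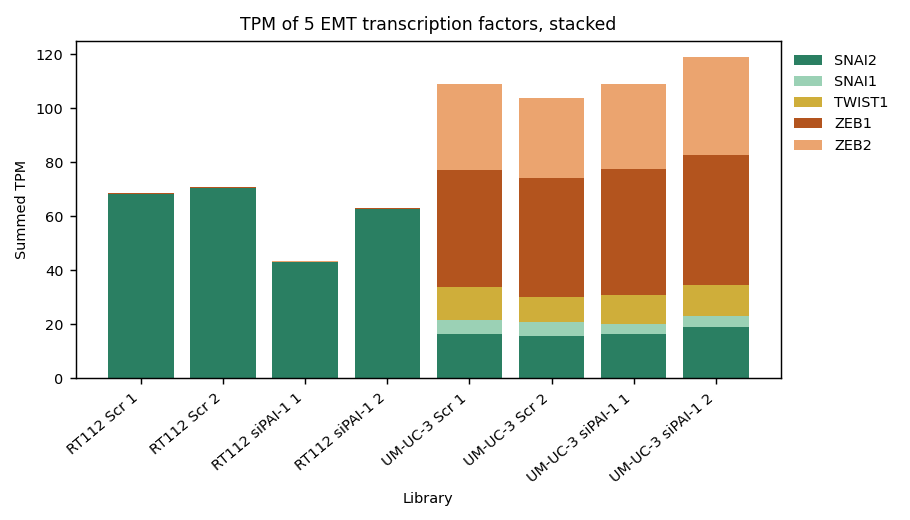
Summed TPM of ZEB1, ZEB2, SNAI1, SNAI2 and TWIST1 in each library, stacked by gene. The RT112 bars, of 43.4 to 70.8 TPM, consist almost wholly of SNAI2, and the UM-UC-3 bars, of 104 to 119 TPM, hold all 5 genes with ZEB1 as the largest share.

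In the siPAI-1 libraries, 9 of the 10 genes passed the threshold in the same directions as with Scr, 4 higher and 5 lower in RT112. Of all 19359 genes 52.2% were called, 26.2% higher and 26.1% lower, and 73.7% did not overlap, against 9 of the 10. The exception was CDH2. The order of the 4 groups by mean was set by the cell line for 9 genes, with all libraries of a line above all libraries of the other, and the Scr and siPAI-1 groups overlapped in both lines for CDH1, VIM, ZEB2 and ESRP1.

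The other genes of the pathway, from lists chosen with earlier results of these data known, were compared between RT112 Scr and UM-UC-3 Scr by the same limma fit, and all calls are at an adjusted p under 0.05. Of all genes tested, 25.3% were called higher and 26.3% lower in RT112, and lists with shares near these do not stand apart from other genes. All 16 epithelial surface and polarity genes were higher in RT112, with a median log2 fold change of 7.59 against -0.057 over all genes, among them the adhesion protein gene EPCAM (331.9 and 330.5 TPM against 0.14 and 0.46 TPM), SPINT1 (245.9 and 236 against 0.02 and 0.22 TPM) and MAL2 (164 and 153 against 0 and 0.11 TPM). Of 11 epithelial transcription factors, 10 were higher in RT112, with ELF3 (191.5 and 192 against 0 and 0.32 TPM), GRHL2 (80.9 and 76.1 against 0 and 0.28 TPM), which is known to sustain CDH1 and repress ZEB1, EHF (41.9 and 41.7 against 0.04 and 0.22 TPM) and FOXA1 (62.6 and 64.6 against 0.35 and 0.51 TPM). The 1 lower gene of this list, KLF4, was chosen after its values were seen and was 24 and 20.2 TPM in RT112 against 46.4 and 44.7 TPM in UM-UC-3. Apart from KLF4, the named genes of both lists had the same order between the lines as CDH1, ESRP1 and ESRP2.

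The mesenchymal genes did not all follow VIM. Of 12, 5 were higher and 4 lower in RT112, against 25.3% and 26.3% of all genes. SPARC (0.3 and 0.25 TPM in RT112 Scr against 242 and 249 TPM in UM-UC-3 Scr) and THY1 (0.12 and 0.1 against 96.3 and 96.4 TPM) had the order of VIM, whereas S100A4 (498 and 552 against 6.64 and 9.32 TPM) and TAGLN (153 and 154 against 0.84 and 1.46 TPM) had the opposite order. Of 6 other type III and associated filament genes, 2 were higher and 1 lower, with PLEC, a linker of vimentin and keratin filaments, at 371.6 and 358.6 against 261.5 and 252 TPM and SYNM at 4.18 and 3.91 against 6.71 and 6.81 TPM. VIM had thus by far the highest level of the type III filament genes in UM-UC-3, where DES, GFAP and PRPH, named after their values were seen, did not exceed 0.38 TPM.

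Of 19 other cadherins, 18 were tested, 6 were higher and 5 lower in RT112. P-cadherin, CDH3, had the order of CDH1, with 128 and 123 TPM in RT112 Scr against 0.29 and 0.81 TPM in UM-UC-3 Scr. CDH11, a cadherin of mesenchymal cells, had the order of VIM, with 0.13 and 0.04 TPM against 28.8 and 28.5 TPM, as had CDH4 with 0.06 and 0.07 TPM against 6.57 and 6.18 TPM. CDH12 was listed at 0 in RT112 and was 1.94 and 3.23 TPM in UM-UC-3 Scr. The level of CDH2 in UM-UC-3 Scr was therefore below that of CDH11, and its level in RT112 Scr below those of CDH1 and CDH3.

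Of 13 genes of catenins, nectins and their junction partners, 5 were higher and 6 lower in RT112. This compares with 25.3% and 26.3% of all genes, which were also called in both directions. JUP, the plakoglobin gene, was 419 and 429.7 TPM in RT112 Scr against 3.32 and 3.63 TPM in UM-UC-3 Scr, NECTIN4 was 17.7 and 22.5 against 0.06 and 0.06 TPM, and NECTIN1 was 163.7 and 163 against 14.8 and 12.9 TPM. CTNND2, a catenin known from neurons, was 0.03 TPM and 0 against 17 and 11.3 TPM. The corepressors through which SNAI and ZEB proteins act were called about as often as any gene, with 4 of 10 higher and 1 lower in RT112 against 51.6% of all genes in either direction. KDM1A was 255 and 261 against 84 and 85.5 TPM, CTBP1 was 128.7 and 126 against 90.9 and 94.3 TPM, HDAC1 was 157 and 145 against 118 and 104 TPM, and CTBP2 was 48.5 and 49.1 against 80 and 83.2 TPM.

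Among 12 other splicing regulators of EMT, 4 were higher and 7 lower in RT112. RBM47, also a factor of epithelial splicing, had the order of ESRP1 and ESRP2, with 60.5 and 59.1 TPM in RT112 Scr against 0.77 and 0.25 TPM in UM-UC-3 Scr. MBNL2 was 59.5 and 55.3 against 3.77 and 2.86 TPM, MBNL3 was 5.05 and 3.89 against 1.31 and 0.96 TPM, and PTBP2 was 10.4 and 8.88 against 32.3 and 32.4 TPM. Of 5 genes with exons that ESRP proteins regulate, 3 were higher and 1 lower. FGFR2 was 12.2 and 14 against 0.21 and 0.21 TPM and CTNND1 was 248 and 235 against 92.1 and 93.9 TPM, while CD44 (647.6 and 709.7 against 544.8 and 559.9 TPM) and ENAH (146 and 146.5 against 195.6 and 203 TPM) differed by 0.3 and -0.45 on the log2 scale. Gene totals do not show which exons were used, so the splice forms themselves were not analysed here.

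Of 12 other EMT transcription factors, 11 were tested, 4 were higher and 5 lower in RT112. FOXC2 (0.02 TPM and 0 in RT112 Scr against 19.1 and 16.9 TPM in UM-UC-3 Scr) and TCF4 (0.42 and 1.01 against 4.58 and 4.93 TPM) had the order of ZEB1. FOXQ1 (26.4 and 26.4 against 0.06 and 0.11 TPM) had the order of SNAI2, and TWIST2, the paralogue of TWIST1, was 4.22 and 2.92 TPM in RT112 Scr and listed at 0 in all UM-UC-3 libraries, opposite to TWIST1.

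The genes with a pattern most like that of CDH1 were INPP5D, TNS4 and ELF3, with root mean square differences of 0.294, 0.338 and 0.358 of centred log2(TPM + 0.1) values over the 8 libraries, among 12802 genes whose mean reached 1 TPM. INPP5D was 102 and 100 TPM in RT112 Scr and 0 and 0.24 TPM in UM-UC-3 Scr. Most like ZEB1 were CCND2, GFRA1 and FAM127C, with differences of 0.087, 0.126 and 0.136, and CCND2 was 16.7 and 14.7 TPM in UM-UC-3 Scr and 0.01 TPM in both RT112 Scr libraries. These measures mostly reflect the difference between the lines, which all 8 libraries share.

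Whether PAI-1 depletion moved the switch was compared within each line. In UM-UC-3, 0 of the 10 genes and 0 of all 18528 genes tested passed an adjusted p of 0.05 in limma. At an unadjusted p under 0.05, 1 of the 10 genes passed against 1114 (6.01%) of all genes, and 4 of the 10 did not overlap between the groups, 3 higher and 1 lower with siPAI-1, against 32.2% of all genes (15.1% higher and 17.1% lower). The median log2 fold change of the 10 genes was 0.13 against -0.005 over all genes. CDH2 was the 1 gene with an unadjusted p under 0.05, with 12.6 and 12.4 TPM with siPAI-1 above 10.6 and 9.22 TPM with Scr and a log2 fold change of 0.34 (SE 0.13, adjusted p = 0.823 by limma). ZEB1 and SNAI2 also had both siPAI-1 libraries above both Scr libraries, by 0.13 each (SE 0.06 and 0.11, adjusted p = 0.858 and 0.864 by limma), and SNAI1 had both below, by -0.35 (SE 0.19, adjusted p = 0.858 by limma).

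Among the genes above 1 TPM in UM-UC-3, the intervals were narrowest for VIM, ZEB1 and ZEB2. The 95% interval of the log2 fold change ran from -0.18 to 0.17 for VIM, from -0.03 to 0.29 for ZEB1 and from -0.13 to 0.4 for ZEB2. It ran from -0.4 to 0.46 for TWIST1, from -0.16 to 0.42 for SNAI2 and from 0 to 0.68 for CDH2. For SNAI1, measured at 3.96 to 5.19 TPM, it was the widest of these, from -0.83 to 0.14. The levels of CDH1, ESRP1 and ESRP2 were too low and too variable for a comparison, with intervals from -1.59 to 2.98, from -1.38 to 2.11 and from -2.32 to 1.62, so that a change of 2-fold in either direction was not detectable for them at this depth. All siPAI-1 libraries of UM-UC-3 remained at or below 0.46 TPM for each of these epithelial genes.

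In RT112, 0 of the 10 genes and 0 of all 18437 genes tested passed an adjusted p of 0.05 in limma. At an unadjusted p under 0.05, 1 of the 10 genes passed against 1063 (5.77%) of all genes, and 5 did not overlap between the groups, 1 higher and 4 lower with siPAI-1, against 32.7% of all genes (18% higher and 14.7% lower). The median log2 fold change of the 10 genes was -0.03 against 0.014 over all genes. ESRP2 was the gene with an unadjusted p under 0.05, with 42.9 and 41.6 TPM with siPAI-1 above 37 and 34.9 TPM with Scr and a log2 fold change of 0.23 (SE 0.07, adjusted p = 0.838 by limma). CDH1 differed by 0.02 (95% interval -0.13 to 0.17) and ESRP1 by -0.09 (95% interval -0.26 to 0.09), so that for these genes a 2-fold change in either direction lay outside the interval.

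CDH2, SNAI1, SNAI2 and TWIST1 had both RT112 siPAI-1 libraries below both Scr libraries. The log2 fold changes were -0.72 (SE 0.42, adjusted p = 0.838) for CDH2, -0.42 (SE 0.19, adjusted p = 0.838) for SNAI2, -0.83 (SE 0.41, adjusted p = 0.838) for SNAI1 and -0.62 (SE 0.34, adjusted p = 0.838) for TWIST1 by limma. The values of SNAI1 and TWIST1 rest on at most 5 estimated reads in a library. Those of CDH2 and SNAI2 came mostly from RT112 siPAI-1 replicate 1, the library that stood apart: CDH2 was there at 40.5% and SNAI2 at 63.9% of the mean of the other 3 RT112 libraries, whereas CDH1 and ESRP1 were at 100.2 and 101.3%. Without this library the log2 fold changes were -0.11 for CDH2 and -0.14 for SNAI2, and without replicate 2 of the group they were -1.33 and -0.69, with no adjusted p under 0.05 in limma in either case (0.831 and 0.628, and 0.277 and 0.206). The part of this library in the values of CDH2 and SNAI2 was not tested further.

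**Figure D5:**
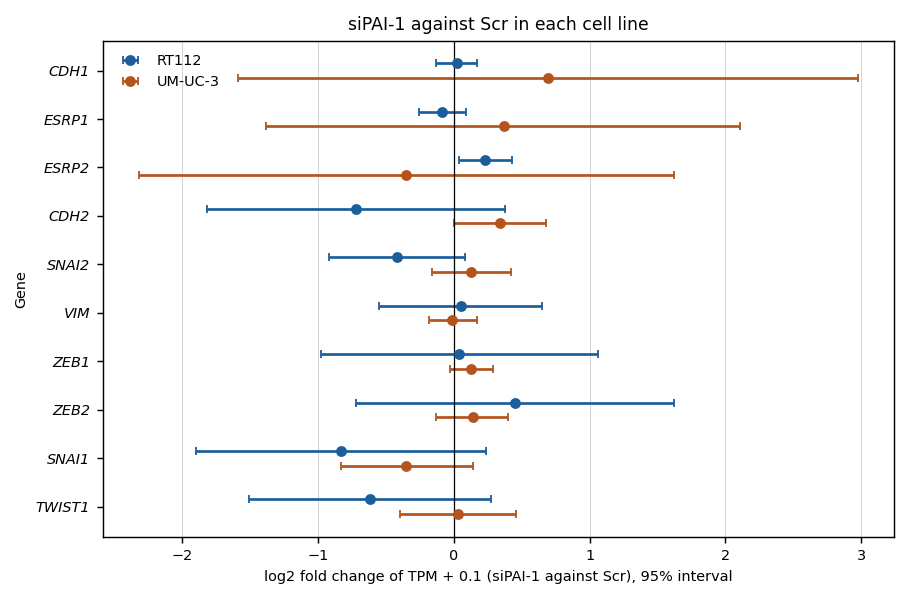
The log2 fold change of TPM + 0.1 of siPAI-1 against Scr for each gene, with the 95% interval from limma, in RT112 (blue) and UM-UC-3 (orange). All points lie between -0.83 and 0.69, and the intervals are wide where a gene is near 0 TPM, as for CDH1, ESRP1 and ESRP2 in UM-UC-3, and where the 2 libraries differ, as for CDH2 in RT112.

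Of the other lists, 0 genes passed an adjusted p of 0.05 for siPAI-1 against Scr in either line by limma. At an unadjusted p under 0.05, which 5.77% of all genes passed in RT112 and 6.01% in UM-UC-3, the lists held at most 3 genes each. The largest count was in RT112, with 2 of 12 splicing regulators of EMT higher and 1 lower. In the same line 2 of 16 epithelial surface and polarity genes were higher. These shares were not tested. The endothelial marker PECAM1 was 1.41 and 1.76 TPM in RT112 siPAI-1 against 0.48 and 0.39 TPM in RT112 Scr (adjusted p = 0.838 by limma), and its part in the results was not tested. The siPAI-1 effect was also compared between the lines by an interaction over all 8 libraries. With limma, 0 of 20274 genes and 0 of the 10 passed an adjusted p of 0.05, and 0 of the 10 passed an unadjusted p of 0.05, where 1370 (6.76%) of all genes did. The effects of siPAI-1 on the 10 genes were thus not shown to differ between RT112 and UM-UC-3.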

How the data were processed

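Stranded mRNA libraries of RT112 and UM-UC-3 cells were read in 75-base single reads, 2 libraries per group, and were grouped by their labels. The deposited tables give, for each gene, TPM and FPKM as the authors made them, to 2 decimals. Both scale reads to gene length, and TPM also to a common sum; no counts were used here. The methods of the authors name cutadapt, STAR, featureCounts and DESeq2 on hg38, while the submitters' processing notes name STAR 2.5.0, RSEM 1.2.25 and GRCh38, and which program made the values is not given in the sources used here. Of 27567 rows, 92 spike-in rows were left out. The knock-down was described as 3 independent replicate experiments, and 2 libraries per group were analysed here. The labels do not link the libraries to these experiments.

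Differences were tested two-sided on log2(TPM + 0.1) with lmFit and the trend option of eBayes from limma 3.58.1 (R 4.3.3), fitted on the 4 libraries of each comparison, with Benjamini-Hochberg adjustment over genes above 0 in at least 1 of them. The interaction used all 8 libraries. A model of counts, which the methods describe, was not possible on these units. The procedure was tested on simulated data. Depth was estimated from the steps of FPKM values of short genes, searched from 20 to 45 M reads because a depth 2 times as large leaves the same steps; reads per gene follow from it and the length of the main transcript, and are approximate. Sums, plots and matches used Python 3.11.15, numpy 2.4.6, pandas 2.3.3 and matplotlib 3.10.9. Coordinates are those of RefSeq on GRCh38.p14. The 3′ untranslated regions are those of the MANE Select transcripts in GENCODE release 44, as mapped to the earlier genome build.

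The 10 genes and the lists were chosen with earlier results of these data known. Named are the 10 genes, of each list up to 4 genes with the largest log2 fold change between the Scr groups among those with an adjusted p under 0.05 and a mean of at least 1 TPM, any with an adjusted p under 0.05 for siPAI-1, the 3 genes most like CDH1 and the 3 most like ZEB1, apart from genes that are not reported here and genes said to be chosen later or given as markers. Alternatives were pseudocounts of 1 and 0.01 TPM, FPKM, rescaling by median ratios, a mean of at least 1 TPM, eBayes without trend, a replicate block, 1 fit over all 8 libraries, and each library left out in turn. Same-numbered libraries of 2 groups deviated together with correlations of only -0.043 to 0.098 over 12803 genes, so the numbers were not taken to pair them.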

Additional observations from a re-analysis of the deposited data

Results flagged for a closer look

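For CDH2, the N-cadherin gene, both siPAI-1 libraries lay below both Scr libraries in RT112 (7.65 and 17.9 against 18.2 and 20.6 TPM) and above them in UM-UC-3 (12.6 and 12.4 against 10.6 and 9.22 TPM). The difference of the 2 effects was -1.06 on the log2 scale (SE 0.5, 95% interval -2.26 to 0.15) and did not pass the interaction test of limma (adjusted p = 0.778). It was -0.45 without RT112 siPAI-1 replicate 1 and -1.67 without RT112 siPAI-1 replicate 2.

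For SNAI2, the gene of the repressor Slug, the siPAI-1 libraries also lay below the Scr libraries in RT112 and above them in UM-UC-3, there by as little as 16.46 against 16.44 TPM, with 42.9 and 62.8 against 68.2 and 70.4 TPM in RT112 and 16.5 and 18.8 against 16.4 and 15.7 TPM in UM-UC-3. The difference of the effects was -0.55 on the log2 scale (SE 0.24, 95% interval -1.13 to 0.04; adjusted p = 0.753 by limma), and the siPAI-1 effect passed the threshold in neither line. The difference was -0.27 without RT112 siPAI-1 replicate 1 and -0.82 without RT112 siPAI-1 replicate 2, so the size of both differences depended on these libraries.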

How the results depend on the processing

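Over 67 results, 24 counts moved under alternative settings, by over 1.5 times or from 0 to a higher count. Among values of the 10 genes, 14 lost the call and 24 changed direction. A further 751 values were classed as the same, for genes by direction and side of the threshold and for counts by closeness. They include the median log2 fold change of all genes, which was classed as the same without a check of its direction. Between the Scr groups this median went from -0.057 to 0.008 without UM-UC-3 Scr replicate 1. CDH2 between the siPAI-1 groups gained the call in both directions, at 0.51 and -0.71 without RT112 siPAI-1 replicates 1 and 2. No alternative gave a member of the 10 an adjusted p under 0.05 for siPAI-1 against Scr. Replicate block: with the replicate number as a block, 4597 genes were higher and 4790 lower in RT112 Scr than in UM-UC-3 Scr, and 4731 and 4634 with siPAI-1, and the block changed no call on the 10 genes.

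With 1 library left out in turn, the genes called between the Scr groups numbered 2975 to 3120 higher (4850 with all) and 2655 to 3589 lower (5059 with all), and between the siPAI-1 groups 2492 to 3904 higher (5064 with all) and 2802 to 3238 lower (5044 with all). For the difference of the siPAI-1 effect between the lines, 0 to 101 genes were called higher and 0 to 42 lower. The causes were not tested, and the smaller number of libraries cannot be told apart from the part of the library left out. Log2 fold changes that changed direction were, between the siPAI-1 groups, CDH2 with -0.71 to 0.51. For siPAI-1 against Scr in UM-UC-3 they were CDH1 with -0.57 to 1.96, VIM with -0.08 to 0.06, TWIST1 with -0.16 to 0.22, ESRP1 with -0.4 to 1.13 and ESRP2 with -1.42 to 0.72. For siPAI-1 against Scr in RT112 they were CDH1 with -0.02 to 0.06, VIM with -0.13 to 0.24 and ZEB1 with -0.07 to 0.15. For the difference of the siPAI-1 effect they were CDH1 with -1.94 to 0.6, VIM with -0.12 to 0.24, ZEB1 with -0.2 to 0.02, ESRP1 with -1.22 to 0.31 and ESRP2 with -0.48 to 1.65.

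With a pseudocount of 0.01 TPM, ESRP2 was 0.31 for siPAI-1 in UM-UC-3 and -0.08 for the difference between the lines, and with 1 TPM that difference was -0.06 for ZEB2 and 0.16 for SNAI1. The filter at a mean of 1 TPM called 1 gene lower in UM-UC-3. The fit over all 8 libraries called 2 genes higher with siPAI-1 in RT112, and eBayes without trend called 4 and 3 genes for the difference. Without RT112 siPAI-1 replicate 1, an alternative added after seeing the data, 1080 genes in place of 617 were higher with siPAI-1 in RT112 at an unadjusted p under 0.05. In these cases the cause was not tested.

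The 2 libraries per group limit all comparisons. TPM fixes the sum of a library, so a shift shared by every gene cannot be seen. Levels below about 1 TPM rest on few reads, and an entry at 0 can be a failed estimate. Whether counting used the strand is not stated, so reads of VIM, ZEB1 or ZEB2 and of their antisense genes cannot be told apart.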
